A study of Homo sapiens with 6 samples.

Results

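The 40 genes described here encode proteins of the centromere and the kinetochore. They were chosen by symbol: each row of the deposited count table whose Entrez Gene number has a symbol in a list of these proteins, and all 40 were found among the 19240 genes of the table. Cells of the established human line A549, from a lung carcinoma, were cultured for 48 h either with 25 mM glucose or without glucose, and each group has 3 libraries in which reads from transcript 3' ends were counted. No other agent or genetic change is named for either group. Whether the 3 libraries of a group are 3 cultures is not stated in the labels, and the p-values therefore rest on a spread between libraries that could be technical.

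The centromere is the stretch of a chromosome at which nucleosomes hold CENP-A in place of ordinary histone H3. CENP-A is loaded by the chaperone HJURP and the MIS18 proteins. A constitutive centromere-associated network (CCAN) sits on these nucleosomes through the cell cycle. In mitosis the MIS12, KNL1 and NDC80 complexes assemble on it and bind spindle microtubules, helped by the SKA complex. The chromosomal passenger complex corrects faulty attachments, the checkpoint proteins delay anaphase until attachments are complete, and shugoshins protect the cohesion of sister centromeres. Many of these genes are transcribed mainly in late S phase, G2 and mitosis. Their promoters often hold a cell cycle genes homology region (CHR), which is bound by the DREAM and MYBL2-MuvB complexes, and CCAAT boxes, which are bound by NF-Y.

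Promoters of 33 of the 40 genes were matched by Entrez number in a RefSeq table (GRCh38.p14). The 120 bases before the start are shown for 6 members with a CHR in that stretch and for SPC25, the member with the lowest log2 fold change. Capitals mark matches, searched on both strands, to the CHR (spelled TTTGAA, with the variant form TTCGAA), to the box spelled CCAAT, and to an E2F-type element (spelled TTCCCGC, with the variant form TTTGGCGC). A CHR on the other strand reads TTCAAA, the box then reads ATTGG, and the E2F-type element of SPC25 reads GCGGGAA.
CDCA8: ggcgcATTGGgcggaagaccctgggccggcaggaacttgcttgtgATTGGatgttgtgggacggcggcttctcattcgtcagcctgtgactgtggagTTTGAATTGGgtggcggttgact
CENPA: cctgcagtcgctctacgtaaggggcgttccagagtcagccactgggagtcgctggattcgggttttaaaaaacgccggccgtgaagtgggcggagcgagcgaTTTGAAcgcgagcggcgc
HJURP: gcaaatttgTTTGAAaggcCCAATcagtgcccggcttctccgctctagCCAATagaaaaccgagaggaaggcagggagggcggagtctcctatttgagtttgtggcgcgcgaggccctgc
INCENP: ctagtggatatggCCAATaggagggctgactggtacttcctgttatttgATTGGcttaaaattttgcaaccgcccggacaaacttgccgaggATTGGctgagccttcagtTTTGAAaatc
ZWINT: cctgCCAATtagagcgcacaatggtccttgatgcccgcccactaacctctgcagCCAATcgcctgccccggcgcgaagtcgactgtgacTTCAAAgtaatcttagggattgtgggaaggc
CENPC: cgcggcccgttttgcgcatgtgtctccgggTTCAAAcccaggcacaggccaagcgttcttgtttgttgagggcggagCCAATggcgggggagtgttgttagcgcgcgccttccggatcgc
SPC25: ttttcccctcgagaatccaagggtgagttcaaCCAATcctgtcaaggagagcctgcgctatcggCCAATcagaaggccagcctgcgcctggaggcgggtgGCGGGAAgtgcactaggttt
These stretches lie at chr1:37692396-37692515 (plus strand) for CDCA8, chr2:26785936-26786055 (plus) for CENPA and chr2:233854536-233854655 (minus) for HJURP. INCENP is at chr11:62123891-62124010 (plus), ZWINT at chr10:56361260-56361379 (minus), CENPC at chr4:67545504-67545623 (minus) and SPC25 at chr2:168890431-168890550 (minus). In CDCA8 the CHR match begins 23 bases before the start and runs directly into a CCAAT match on the other strand. In CENPA it begins 18 bases before the start, and in INCENP 10.

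Over the 250 bases before the start, a CHR match stood in 8 of the 33 member promoters (24.2%), against 9.3% of the promoters of 9805 tested genes and 14.6% of all 27305 promoters of that length. All 8 also held a CCAAT match. Promoters with both made up 3.9% of those of tested genes. CCAAT was present in 21 member promoters (63.6%, against 35.1% of those of tested genes), and an E2F-type element in 7 (21.2%, against 10%). The CHR stood in 6 of 26 promoters of members that fell (23.1%) and in 2 of 7 of members that did not pass the test (28.6%). These are letter matches in a fixed window, given as a description.

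Of the 40 members, 30 fell without glucose and none rose, while 10 did not pass. The test was the edgeR quasi-likelihood test (two-sided), with Benjamini-Hochberg adjustment over the 11886 genes tested and an adjusted p under 0.05 as the threshold. The number with a higher level was also 0 at an unadjusted p under 0.05, in edgeR and in DESeq2. Over all genes tested 10.7% fell and 11.6% rose, together 22.3%. The median log2 fold change (without minus with glucose) was −1.07 over the members and 0.02 over all genes tested. All 3 libraries without glucose lay below all 3 with glucose for 29 members, against 19.4% of all genes tested. At least 2-fold lower and past the threshold were 21 members, against 5.73% of all genes tested. When 1 library was left out, 20 to 32 members fell. Of the 30 genes, 19 kept the call in each of 12 alternative analyses, and the other 11 are named with their complexes. In a culture, fewer dividing cells and less RNA per dividing cell cannot be told apart.

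**Figure D1:**
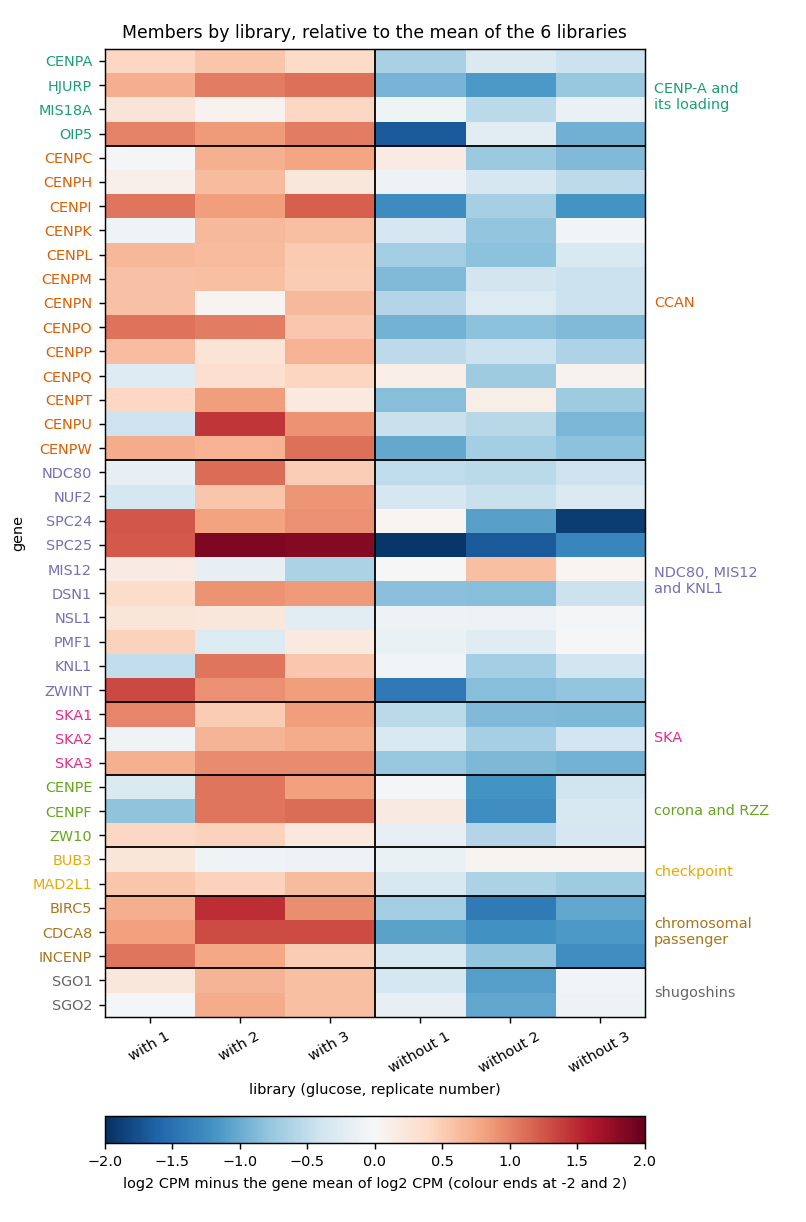
Level of each of the 40 members (rows, grouped by complex) in the 6 libraries (columns). Colour is log2 CPM minus the mean of that gene over the libraries, from −2 to 2. Most rows are red in the 3 columns with glucose and blue in the 3 without. Some rows, among them CENPF, CENPU, KNL1, NUF2 and CENPE, are pale or blue in replicate 1 with glucose.

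Levels are given as CPM, which divides a count by the TMM-scaled size of its library, for replicates 1, 2 and 3 in that order. The depth was 6701004 to 14259943 gene counts in the glucose group and 11086416 to 14060313 in the other. The first principal component (57.4% of the variance) separated the groups. The second (17.6%) set replicate 1 with glucose at 38.6 against −23.9 and −19.9 for replicates 2 and 3. Replicates 1, 2 and 3 without glucose were spread on it as well, at −19.3, 20.2 and 4.25. KRT8 and KRT18, keratins of simple epithelium, were abundant (means of 2091 and 1370 CPM with glucose), and both fell (log2 fold changes of −1.18 and −0.90). The other epithelial markers did not pass: EPCAM (mean of 4.10 CPM with glucose) had −0.43, KRT19 −0.49 and CDH1 0.42, and CDH1 was higher in all 3 libraries without glucose. Of the alveolar type 2 markers SFTPA1 and SFTPC had no count in any library, SFTPB had 4 to 13 counts and NKX2-1 at most 2. ABCA3, of the same list, had 14.2 to 15.3 CPM with glucose and 19.3 to 24.2 without, and did not pass (0.58, adjusted p = 0.0581). Of the markers of blood, vessel and connective tissue cells, CD3E, VWF and DCN were at 0 in all libraries, and CD68 and COL1A1 alone passed the filter on low counts. CD68 rose (log2 fold change 1.04, adjusted p = 0.00605) and COL1A1 fell (−1.37, adjusted p = 0.00263), with no overlap between the groups in either. The summed level of the leukocyte list, nearly all of it CD68, was 14.3 to 16.4 CPM with glucose and 24.8 to 39.2 without, and that of the fibroblast list, nearly all of it COL1A1, 10.7 to 14.2 and 4.21 to 5.38. All 8 proliferation markers listed, among them MKI67, PCNA and CDK1, fell, and their summed level was 2319 to 3628 CPM with glucose and 1097 to 1583 without. Immediate-early and heat-shock genes, a list that also responds to handling, rose in 6 of 12 cases, with summed levels of 1287 to 1423 CPM with glucose and 2206 to 2646 without. The part of any of these lists in the member results was not tested.

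The genes for CENP-A and its loading fell in 3 of 4 cases. CENPA, the centromeric histone, stood at 53.4, 59.3 and 52.6 CPM with glucose and at 25.8, 33.0 and 30 without. The groups did not overlap, and the log2 fold change was −0.90 ± 0.19 (SE; edgeR adjusted p = 0.00633). HJURP, its chaperone, had 139, 170.3 and 179 CPM with glucose and 43.9, 37.8 and 49.4 without. Every library without glucose was thus far below the lowest with glucose, a log2 fold change of −1.90 ± 0.21 (adjusted p = 1.29e-04). OIP5, also known as MIS18-beta, had 15.7, 14.3 and 16.0 CPM with glucose and 2.47, 6.74 and 4.05 without. It fell 3.44-fold (adjusted p = 0.00244). MIS18A, its partner in the MIS18 complex, had 41.0, 35.8 and 45.7 CPM with glucose and 32.4, 23.7 and 31.4 without. Its groups did not overlap either, but the log2 fold change of −0.49 did not pass (95% interval −0.93 to −0.04, adjusted p = 0.106). The fold was thus 1.86 for the histone and 3.73 for its chaperone.

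The CCAN fell in 11 of its 13 genes, with a median log2 fold change of −1.06. Its summed level was 405, 482 and 484 CPM with glucose and 216, 214 and 219 without. The SD of this sum was 44.9 CPM among the libraries with glucose and 2.66 CPM among those without. For single CCAN genes the SD without glucose ran from 0.30 (CENPO) to 7.44 CPM (CENPK), below and above that of the sum. CENPI, of the CENP-H/I/K/M module, had the smallest p: 29.1, 24.5 and 31.7 CPM with glucose against 5.79, 8.73 and 6.04 without. It fell 4.14-fold (log2 fold change −2.05 ± 0.24, adjusted p = 1.82e-04). CENPW, a histone-fold partner of CENP-T, went from 58.4, 56.5 and 75.4 CPM to 17.2, 21.9 and 19.9. CENPO, of the CENP-O/P/Q/U module, went from 29.3, 28.0 and 20.1 CPM to 7.21, 7.81 and 7.51. Neither gene had overlapping groups, and their log2 fold changes were −1.69 ± 0.21 and −1.77 ± 0.23.

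Fitted folds within the CCAN modules are given side by side, and no difference between genes was tested. In the CENP-O/P/Q/U module CENPO, CENPU and CENPP fell 3.42-, 2.73- and 2.09-fold, while CENPQ had 19.4, 29 and 31.1 CPM with glucose and 25.4, 14.1 and 24.2 without. These groups overlapped, and the log2 fold change of −0.33 (95% interval −0.90 to 0.25) did not pass. In the CENP-H/I/K/M module CENPM fell 2.14-fold, CENPK 1.73-fold and CENPH 1.57-fold, beside the 4.14-fold of CENPI. CENPL and CENPN, whose products bind each other, fell 2.28- and 1.83-fold. CENPT, which links the CCAN to NDC80, fell 1.89-fold, beside the 3.23-fold of its partner CENPW. CENPC, which holds the CENP-A nucleosome and recruits the MIS12 complex, missed the threshold (log2 fold change −0.96 ± 0.33, adjusted p = 0.0547).

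Several CCAN calls were lost when 1 library was left out, which also leaves fewer samples. CENPH and CENPK were not called without replicate 2 or 3 with glucose or replicate 2 without glucose, nor CENPH without replicate 3 or CENPK without replicate 1 of the cells without glucose (adjusted p from 0.0835 to 0.183). CENPN was lost without replicate 3 of either group (0.0597 and 0.0514), CENPU without replicate 2 with glucose or replicate 3 without (0.0689 and 0.0642). CENPT was lost without replicate 1 or 2 with glucose or replicate 1 or 3 without (0.0521 to 0.145). In the fits without a call the log2 fold changes were −0.705 to −0.48 for CENPH and −0.80 to −0.63 for CENPK. They were −0.76 and −0.87 for CENPN, −1.02 and −1.33 for CENPU (libraries in the order above) and −0.96 to −0.72 for CENPT. With all libraries they were −0.65, −0.79, −0.87, −1.45 and −0.92. CENPC passed without replicate 1 of either group (0.0258 with glucose, 0.0168 without), with scaling by library totals, without a filter on low counts and in DESeq2. The number of CCAN genes that fell was 7 without replicate 2 with glucose or replicate 3 without glucose.

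**Figure D2:**
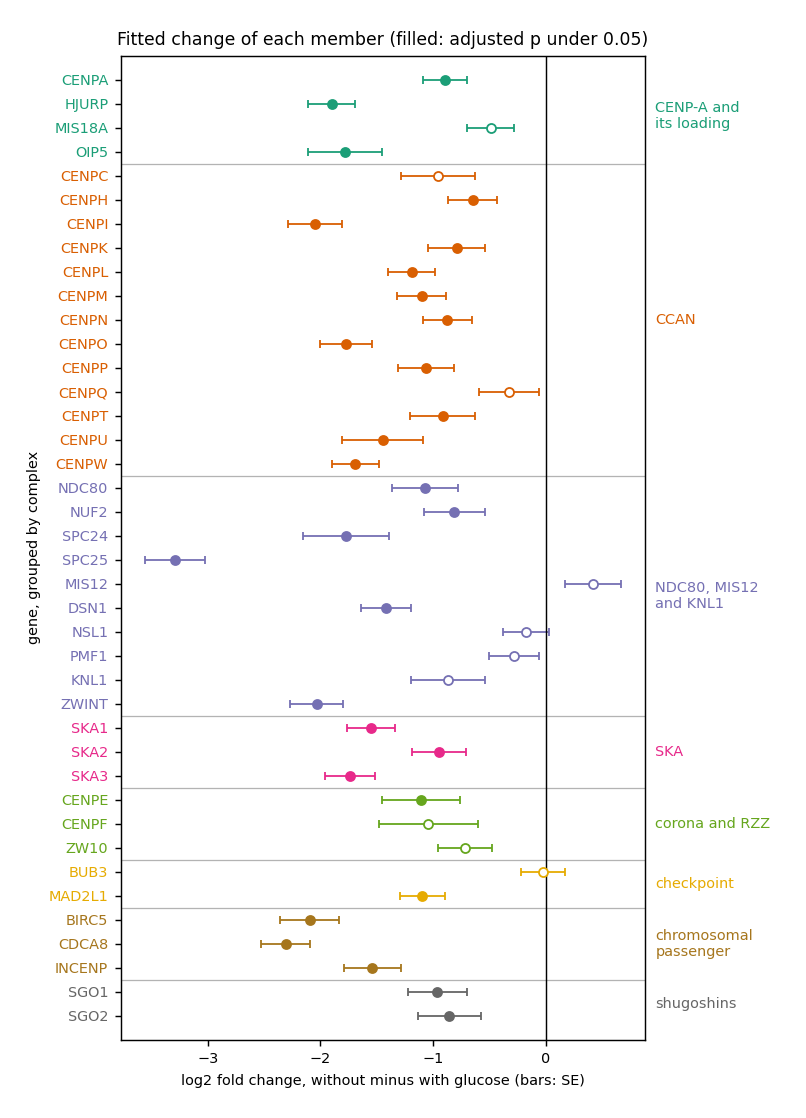
Fitted log2 fold change (without minus with glucose) of each member, with bars of 1 SE, grouped by complex. Filled points passed at an adjusted p under 0.05; SPC25 lies farthest to the left at −3.29 and MIS12 is the one point to the right of 0, at 0.42.

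Of the outer kinetochore genes, the NDC80 complex fell in all 4 subunits and the MIS12 complex in 1 of 4. The NDC80 complex is a rod with NDC80 and NUF2 at the microtubule end and SPC24 and SPC25 at the centromere end. SPC25 had 30, 46.8 and 45.9 CPM with glucose and 3.32, 3.98 and 5.16 without. No other member had so low a log2 fold change: −3.29 ± 0.27, a 9.79-fold fall (adjusted p = 2.72e-05). Its partner SPC24 fell 3.41-fold, though its libraries without glucose were spread (14.4, 6.58 and 3.76 CPM): its log2 fold change of −1.77 was −2.43 without replicate 1 and −1.42 without replicate 3 of that group. NDC80 and NUF2 fell 2.11- and 1.75-fold. In replicate 1 with glucose NUF2 had 27.3 CPM, below the 27.5 and 28.4 of replicates 1 and 3 without glucose, so its groups overlapped. NUF2 was not called when any library but replicate 1 with glucose was left out (adjusted p from 0.107 to 0.217), and NDC80 not without replicate 2 with glucose or any of the 3 libraries without glucose (0.0543 to 0.104). Their log2 fold changes in these fits were −0.85 to −0.53 and −1.12 to −0.71, beside −0.81 and −1.07 with all libraries.

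In the MIS12 complex, which joins the CCAN to the outer complexes, DSN1 had 57.7, 83.2 and 80.5 CPM with glucose and 25.1, 24.7 and 33.0 without. It fell 2.67-fold (log2 fold change −1.42 ± 0.22, adjusted p = 9.76e-04). The other subunits had overlapping groups. NSL1 had 77.4, 76.1 and 55.6 CPM with glucose and 60.9, 60.1 and 64.3 without, a log2 fold change of −0.17 (95% interval −0.61 to 0.27). MIS12 itself had 48.2, 38.2 and 27.8 CPM with glucose and 42.7, 65.3 and 44.2 without. It alone among the members had a positive log2 fold change, 0.42 (95% interval −0.12 to 0.96), which did not pass. PMF1 had −0.28 (−0.77 to 0.21). The intervals of NSL1 and PMF1 lie above the fitted value of DSN1, but the difference between subunits was not tested, and the subunits were singled out after their values were seen. In the KNL1 complex ZWINT, which binds KNL1, went from 103, 77.6 and 73.5 CPM to 15.4, 22.7 and 23.8, a log2 fold change of −2.03 ± 0.24 (adjusted p = 1.78e-04). KNL1, the scaffold for checkpoint proteins, had 14.6, 42.7 and 29.6 CPM with glucose and 19.6, 12.8 and 15.6 without. It did not pass (log2 fold change −0.86, adjusted p = 0.0762), but did without replicate 1 with glucose (−1.18, 0.00753), with library totals as scaling, with no filter and in DESeq2.

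**Figure D3:**
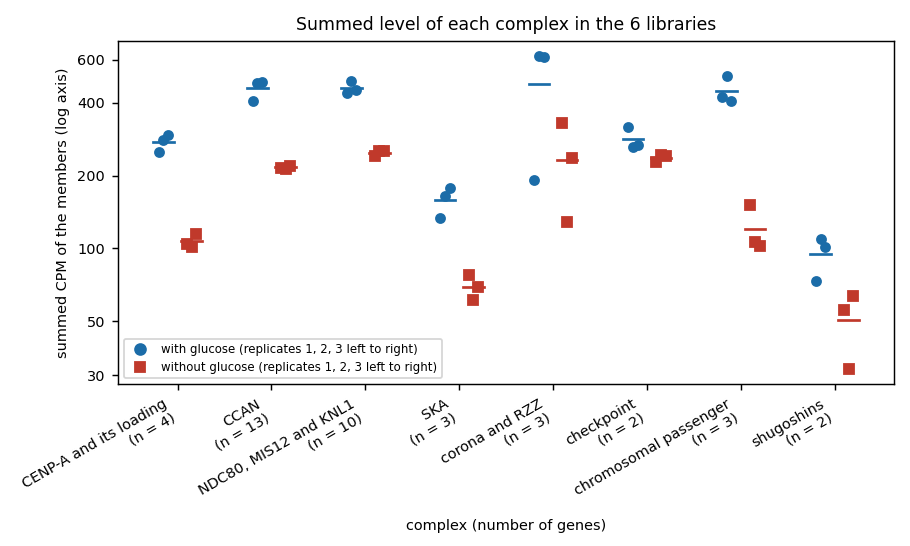
Summed CPM of the members of each complex in each library (log axis), blue circles with glucose and red squares without, replicates 1 to 3 from left to right and the group mean as a line. The CCAN squares lie between 214 and 219; for the corona group, replicate 1 with glucose (192) lies below 2 of the squares.

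All 3 SKA genes, whose products track microtubule ends with NDC80, fell. SKA1 had 54.7, 39.9 and 49.7 CPM with glucose and 19.3, 15.1 and 15 without. SKA3 had 18.2, 21.6 and 21.5 CPM with glucose and 6.64, 5.97 and 5.82 without. These genes fell 2.93- and 3.34-fold, with adjusted p of 4.50e-04 and 2.94e-04 (edgeR), and neither had overlapping groups. SKA2 had 61.1, 102 and 106 CPM with glucose and 51.5, 40.3 and 48.8 without. It fell 1.92-fold (adjusted p = 0.0148), a call that was lost without replicate 2 or 3 of either group (0.0501 to 0.0661), where the log2 fold change was −0.98 to −0.81, beside −0.94.

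All 3 chromosomal passenger genes fell. Their summed level went from 446 ± 57.7 to 120 ± 27.2 CPM (mean ± SD, n = 3), a ratio of 3.71. In the other 7 groups the ratio was 1.20 to 2.57. Taken apart, the NDC80, MIS12 and KNL1 complexes, which form 1 of these groups, had ratios of 2.77, 1.285 and 3.10. CDCA8, the borealin subunit, had 66.8, 93.7 and 93.0 CPM with glucose and 17.9, 16.4 and 16.9 without. BIRC5, the survivin subunit, had 153, 256 and 176 CPM with glucose and 57.3, 34.8 and 45.1 without. INCENP, the scaffold that holds the kinase, had 201, 163 and 137 CPM with glucose and 76.4, 55.5 and 40.7 without. In each of the genes every library with glucose lay above every library without it. The log2 fold changes were −2.31 ± 0.21, −2.10 ± 0.26 and −1.54 ± 0.26, with adjusted p of 6.21e-05, 2.52e-04 and 0.00143 (edgeR). AURKB, the kinase of the complex and not a member here, fell with −1.98 ± 0.24.

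Of the checkpoint members, MAD2L1 fell and BUB3 did not pass, and the difference between them was not tested. MAD2L1, which inhibits the anaphase-promoting complex, had 81.7, 76.3 and 85.6 CPM with glucose and 44.6, 35.9 and 33.8 without. It fell 2.13-fold (adjusted p = 0.00246), with no overlap between the groups. BUB3, which binds KNL1 and recruits the BUB kinases, had 235, 187 and 183 CPM with glucose and 182, 206 and 206 without. Its groups overlapped, and its log2 fold change was −0.03 (95% interval −0.45 to 0.40). The shugoshins fell by less than 2-fold. SGO1 had 43.4, 59.4 and 55.9 CPM with glucose and 28.8, 17.2 and 35.4 without. SGO2 had 29.7, 50.4 and 45.8 CPM with glucose and 27.0, 14.7 and 28.1 without. The groups did not overlap in either gene, but the gap in SGO2 was between 28.1 and 29.7 CPM. Both calls were close to the threshold (adjusted p = 0.0202 and 0.0437). SGO1 was lost without replicate 2 or 3 with glucose or replicate 2 without (0.0575 to 0.0751), and SGO2 when any library but replicate 1 with glucose was left out (0.0592 to 0.149). The log2 fold changes were then −0.92 to −0.74 and −1.03 to −0.63, beside −0.96 and −0.85.

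CENPE and CENPF, large proteins of the fibrous corona, varied widely within groups. CENPF had 136, 498 and 514 CPM with glucose and 269, 99.9 and 189 without (965, 5179 and 7308 counts in the libraries with glucose). Replicate 1 with glucose thus lay below 2 of the 3 libraries without glucose. The log2 fold change of CENPF, −1.04 ± 0.44, did not pass (adjusted p = 0.108). It passed without replicate 1 with glucose (−1.45, adjusted p = 0.0106) and with no filter on low counts (0.0458). CENPE, a kinesin that carries chromosomes to the spindle equator, had 43.1, 111 and 92.2 CPM with glucose and 51.7, 23.0 and 39.8 without. It fell 2.15-fold (log2 fold change −1.11, adjusted p = 0.0389). The call was lost without replicate 2 or 3 of either group (0.0967 to 0.153), with log2 fold changes of −1.16 to −0.84. ZW10, of the RZZ complex that recruits dynein, had 12.3, 12.6 and 10.6 CPM with glucose and 8.16, 6.12 and 7.29 without. It lay just outside the threshold (log2 fold change −0.72, adjusted p = 0.0505), and passed with DESeq2 size factors, with library totals and in DESeq2 (0.0447, 0.0407 and 0.0367).

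Replicate 1 with glucose was low for a subset of the members. Relative to the mean of replicates 2 and 3 with glucose, on the scale log2(CPM + 0.5), CENPF was at −1.89, CENPU at −1.55, KNL1 at −1.26, CENPE at −1.22, NUF2 at −1.05 and NDC80 at −0.94. At the other end MIS12 was at 0.56 and PMF1 at 0.50. The median of the 40 members in that library was −0.13, against 0.04 over 11850 tested genes. GC content of the longest GENCODE v29 transcript ran from 32.9% to 61.4% over the members. It was taken over the whole transcript, not over the 3' ends from which reads were counted. It was 40.8% for CENPF, 38.3% for CENPU, 38.1% for KNL1, 35.3% for CENPE, 38.8% for NUF2 and 40.1% for NDC80. MIS12 and PMF1 had 41.5% and 56.2%. NSL1 and MAD2L1, with 38.0% and 39.4%, were at 0.25 and 0.015 in that library, and all other members below 40% GC were negative there. Across the 40 members Spearman's rho between GC content and the value in that library was 0.58, and 0.36 across all tested genes. These values share that library, the shallowest of the 6, and are a description only. In replicate 2 without glucose rho was 0.41 over the members, and CENPF was at −1.17 and CENPE at −0.97 there. The part of base composition in the member results was not tested.

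**Figure D4:**
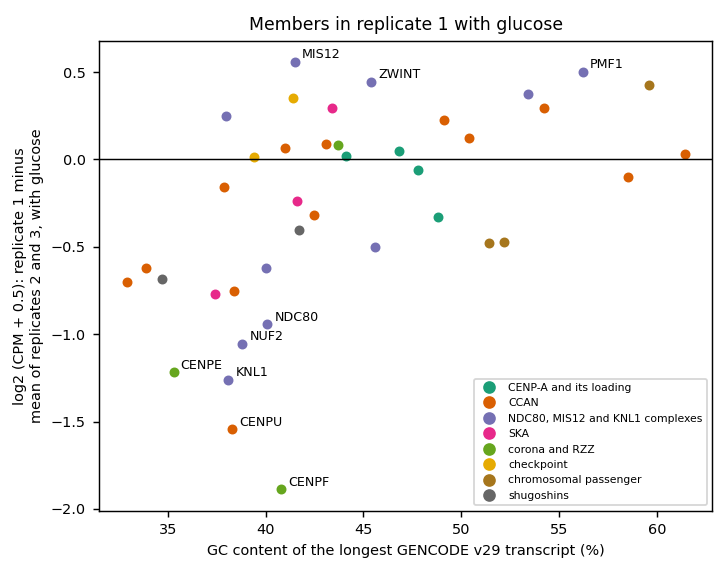
Each point is 1 of the 40 members, coloured by complex: GC content of its transcript (x axis, percent) against its log2 (CPM + 0.5) in replicate 1 with glucose minus the mean of replicates 2 and 3 (y axis). Points below 40% GC reach down to −1.55 (CENPU), and CENPF, at 40.8%, lies at −1.89.

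Head-to-head neighbours, genes on the other strand that start within 1000 bases of a member and run away from it, were tested for 13 members. Of the 10 members among these that fell, the neighbour fell in 1 case and did not pass in 9, a share near the 10.7% of all genes tested that fell. The log2 fold changes of these 9 ran from −0.81 (NUSAP1, beside OIP5) to 0.24 (NOL8, beside CENPP). AIRIM, beside CDCA8, and CMC2, beside CENPN, had −0.57 and −0.47, and both were lower in all 3 libraries without glucose. SKA3 and MRPL57, a mitochondrial ribosomal protein gene whose start lies 106 bases away, are an example. MRPL57 had 79.4, 78.8 and 89.0 CPM with glucose and 78.1, 75.4 and 82.0 without, a log2 fold change of −0.07 ± 0.19 beside −1.74 ± 0.22 for SKA3. CENPO and PTRHD1, with starts 34 bases apart, had −1.77 and −0.32. NDC80 and METTL4, with starts 52 bases apart, had −1.07 and −0.18. METTL4 was low, at 2.75 to 4.52 CPM over the libraries, with an SE of 0.34. RGS5, beside NUF2 and also among the 9, was at 0.46 to 1.99 CPM (−0.22 ± 0.69), so these neighbours are weakly measured. The neighbour that fell was PRR11, which starts 560 bases from SKA2 (−0.97 ± 0.21, adjusted p = 0.00660).

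The neighbours that rose stand beside members that did not pass. DERL2, which acts in degradation from the endoplasmic reticulum, starts 196 bases from MIS12. It had 44.1, 41.1 and 46.0 CPM with glucose and 107, 126 and 111 without, a 2.62-fold rise (log2 fold change 1.39 ± 0.19, adjusted p = 4.89e-04). MMUT, the mitochondrial methylmalonyl-CoA mutase gene, starts 117 bases from CENPQ and rose 1.98-fold (adjusted p = 0.00335). The difference between member and neighbour was not tested. DERL2 also overlaps MIS12 on the opposite strand in the RefSeq gene table, and the strand setting of the counting is not given in the sources used here, so reads of these genes may not be fully separated. The same holds for CENPL, CENPO, CENPP, CENPT, CENPU and SPC25, each of which overlaps another gene with over 100 counts; of all these partners, only DERL2 passed the test.

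**Figure D5:**
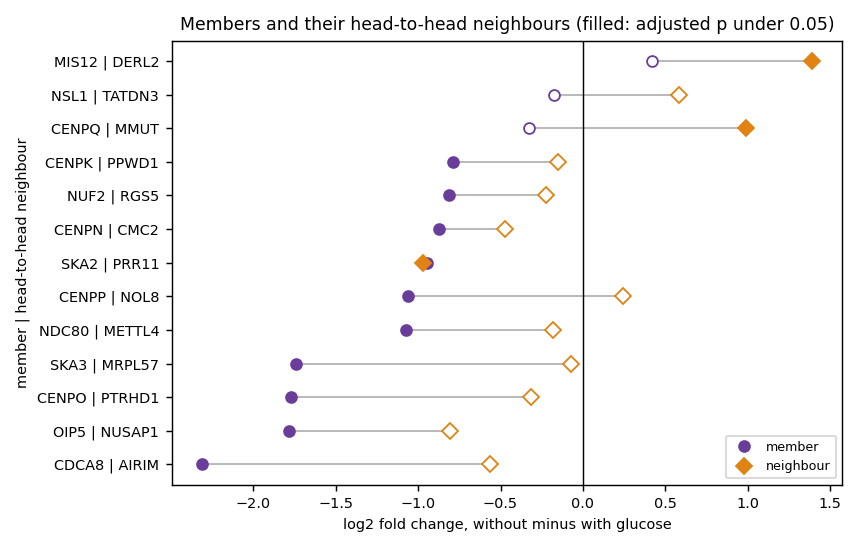
Log2 fold change (without minus with glucose) of 13 members (circles) and of their head-to-head neighbours (diamonds), 1 pair per row, filled where the adjusted p was under 0.05. Member circles lie left of the neighbour diamonds in every row but SKA2 and PRR11, which lie at −0.94 and −0.97.

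Other genes of the same structures, in a list beyond the members, fell in 15 of 24 cases and rose in none (median log2 fold change −1.14; 0 higher also at an unadjusted p under 0.05, in edgeR and in DESeq2). SPAG5, a spindle protein that partners with kinetochores, AURKB, and CDC20, the target of the checkpoint, had log2 fold changes of −1.85 ± 0.20, −1.98 ± 0.24 and −1.86 ± 0.23. The checkpoint kinases BUB1, BUB1B and TTK fell with −1.81, −1.23 and −0.90. Of the RZZ partners of ZW10, ZWILCH fell with −1.69 and KNTC1 with −1.15. CENPX and ITGB3BP (CENP-R), of the CCAN, fell with −1.18 and −1.08. Among those that did not pass were CENPB, which binds a repeat in centromeric DNA (−0.47), CENPS, CENPV, MAD1L1, MAD2L1BP, SPDL1, KNSTRN and BOD1.

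Condensin and cohesin genes, which shape and hold mitotic chromosomes, fell in 11 of 21 cases (median −0.98). CDCA5, NCAPH and NCAPD2 fell with −1.89, −2.17 and −1.36. The cohesin ring genes SMC1A, SMC3 and RAD21 did not pass (−0.89, 0.19 and −0.16), SMC1A only narrowly (edgeR adjusted p = 0.0515). The condensin gene SMC2 did not pass either (−0.98, adjusted p = 0.101), while SMC4 fell with −1.38. The difference between condensin and cohesin genes was not tested. Among 11 genes of the DREAM, MYBL2 and FOXM1 regulators of G2 and mitosis transcription, 5 fell and 6 did not pass (median −0.48). FOXM1 went from a mean of 47.9 to 11.7 CPM and MYBL2 from 77.0 to 16.2, with log2 fold changes of −2.04 ± 0.20 and −2.24 ± 0.27. LIN54, the DREAM subunit that binds the CHR, fell with −1.46 ± 0.30. LIN9 and TFDP1 fell with −1.05 and −0.89, and RBL2, a pocket protein of DREAM, did not pass. RBL2 had 19.9, 26.7 and 24.3 CPM with glucose and 125.1, 26.3 and 22.6 without, so that replicate 1 without glucose alone lay above the glucose group. Its log2 fold change was 1.29 ± 0.52, and 0.04 without that library.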

How the data were processed

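The values the authors deposited are raw read counts per Entrez gene in 6 libraries. STAR, HTSeq and build hg19 are named in the submitters' processing notes, but their versions, the annotation and the strand setting are not given in sources used here. Per the labels' protocols, cDNA was primed with barcoded oligo-dT and the pool was amplified by PCR; no molecular identifiers are mentioned, so intervals treat PCR copies as separate reads. Symbols came from a RefSeq table (GRCh38.p14) for 19178 of 19240 genes. The 5 HTSeq summary lines stayed out of all sums and tests: 32.8% to 36.5% of reads lay outside genes and 18.4% to 22.2% had several alignments, so near-identical gene copies are uncertain.

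edgeR 4.0.16 was run in R 4.3.3 on the deposited counts (TMM, filterByExpr with a minimum count of 10, no covariate), and all 40 members passed the filter, with 26 to 7308 counts per library. SE was worked back from F and is approximate, and 95% intervals use the test's degrees of freedom. The fit was also run on simulated counts. These had the same dispersion for all genes and no outlying library, unlike the data, so that run is no support for the calls. Libraries of a group differed beyond counting noise (chi-square per degree of freedom 22.1 to 57.3), so none were merged. Alternatives were other scalings, other filters, DESeq2 1.42.0, a replicate block and leaving out each library. The members and lists were chosen with earlier results of these data known. Values per library are given for every member of the small groups and, in the CCAN and the NDC80, MIS12 and KNL1 group, for the 3 members with the smallest p and the 1 with the largest; others named with such values were chosen after they were seen.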

Additional observations from a re-analysis of the deposited data

How the results depend on the processing

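The median log2 fold change of the members was −1.12 to −1.03 under other scalings, other filters, DESeq2 and the replicate block, and −1.16 to −0.95 when 1 library was left out. The number of members that fell was 31 with DESeq2 size factors, 33 with library totals, with no filter and in DESeq2, 30 when a mean of 20 counts was required, and 20 to 32 when 1 library was left out; no member rose in any of the 12 alternatives. With a replicate block 25 fell, as CENPH, CENPK, NUF2, CENPE and SGO2 lost their calls (adjusted p from 0.0675 to 0.0957); no other member's call changed. The labels do not say what replicate numbers mark, and same-numbered libraries did not deviate together (r = −0.265, −0.121 and 0.0361; 1 of 6 libraries correlated best with its own number), so the block may pair unrelated libraries.

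Of the corona and RZZ genes 2 fell with DESeq2 size factors, library totals, no filter or DESeq2, 0 with the replicate block, and 0 to 2 when 1 library was left out. Of the shugoshins 1 fell with the replicate block, and 0 to 2 when 1 library was left out. The CCAN ran from 7 to 11 genes and the NDC80, MIS12 and KNL1 group from 4 to 7 on leaving out 1 library. With no filter 1 of the DREAM, MYBL2 and FOXM1 genes, RBL2, passed as higher, as it did without replicate 2 or 3 of the group without glucose (range 0 to 1 on leaving out 1 library); replicate 1 of that group carries the value, with 1319 counts against 343 and 307, and without it the log2 fold change was 0.04 (adjusted p = 0.918). Over all genes 781 to 1232 fell and 860 to 1292 rose when 1 library was left out. The log2 fold change of BUB3 ran from −0.0937 to 0.0976 on leaving out 1 library: it was 0.10 without replicate 1 of the glucose group, 0.03 without replicate 1 of the other group, and negative otherwise; the lowest adjusted p was 0.755. Apart from fewer samples when a library was left out, the cause was not tested. ZW10, CENPC and NUF2, with adjusted p between 0.0495 and 0.0547, lie on either side of the threshold, and the counts of calls depend on such genes.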
